A study of Homo sapiens with 6 samples.

Results

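The genes described here are 49 named genes of the lysosome, matched by symbol among the 25680 gene symbols of the deposited count tables. They are 13 proteases, 11 glycosidases, 4 sulfatases, 7 lipid enzymes and cofactors, 9 membrane proteins, the 3 transcription factors of the TFEB family, and 2 further genes, GNPTAB and GRN. The rule is a list of names and uses no value of these libraries. The names were, however, chosen with earlier results of these data known. All 49 symbols were found, 48 passed the filter on low counts, and the remaining one, NEU1, had 0 counts in every library.

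The libraries came from wild-type U87, an established human glioblastoma cell line. The cells of both groups received 500 nM of EPP6, a cyclic peptide that carried the fluorescent dye rhodamine, at 37C for 1 h, and were then detached and sorted by rhodamine fluorescence. The high-uptake group is the brightest 30% and the low-uptake group the dimmest 30%, with 3 libraries each, numbered 2, 3 and 4. Both groups therefore had the same treatment and differ, per the labels, in the gate alone. No library of cells without peptide was used here, so the values describe how cells of high and low fluorescence differ and not a change caused by the peptide. The labels do not say whether replicates were separate cultures, so p-values measure the spread between these libraries, which may be technical. Low-uptake replicates 3 and 4 were the closest pair within a group, at a chi-square per degree of freedom of 2.35 between their counts. The other pairs within a group stood at 11.5 to 19.6. In sorted pools, a smaller share of cells with a transcript and less transcript per cell cannot be told apart.

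Lysosomes are acidic organelles in which material taken up by endocytosis is broken down. Their soluble hydrolases are made in the endoplasmic reticulum, and most receive a mannose 6-phosphate tag in the Golgi that directs them to the lysosome. Heavily glycosylated membrane proteins line the organelle, and others carry lipids, amino acids and ions across it. The transcription factor TFEB and its relatives TFE3 and MITF bind a short palindromic element, named CLEAR, near the starts of many lysosomal genes, and mTORC1 at the lysosome holds these factors in the cytosol when nutrients are plentiful.

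Few of the lysosomal genes passed the test between the gates. SMPD1, which encodes the acid sphingomyelinase, and the cysteine cathepsin genes CTSF and CTSO were higher in high uptake, by 1.28-, 1.39- and 1.31-fold. No gene of the 48 was called lower, and the limiting membrane genes, the abundant cathepsins and the TFEB family all missed the threshold. A gene is called here when edgeR's quasi-likelihood F-test gave a two-sided p that stayed under 0.05 after Benjamini-Hochberg adjustment over all 14598 tested genes. By this rule 3 of 48 lysosomal genes (6.25%) were called, all higher. Over all tested genes 4.29% were called, 3.03% higher and 1.26% lower in high uptake. At an unadjusted p under 0.05, 11 lysosomal genes were higher and 0 lower, where 10.4% of all tested genes were higher and 7.97% lower. DESeq2 called 4 lysosomal genes, the same 3 and GAA, all higher, where it called 5.99% of all genes.

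**Figure D1:**
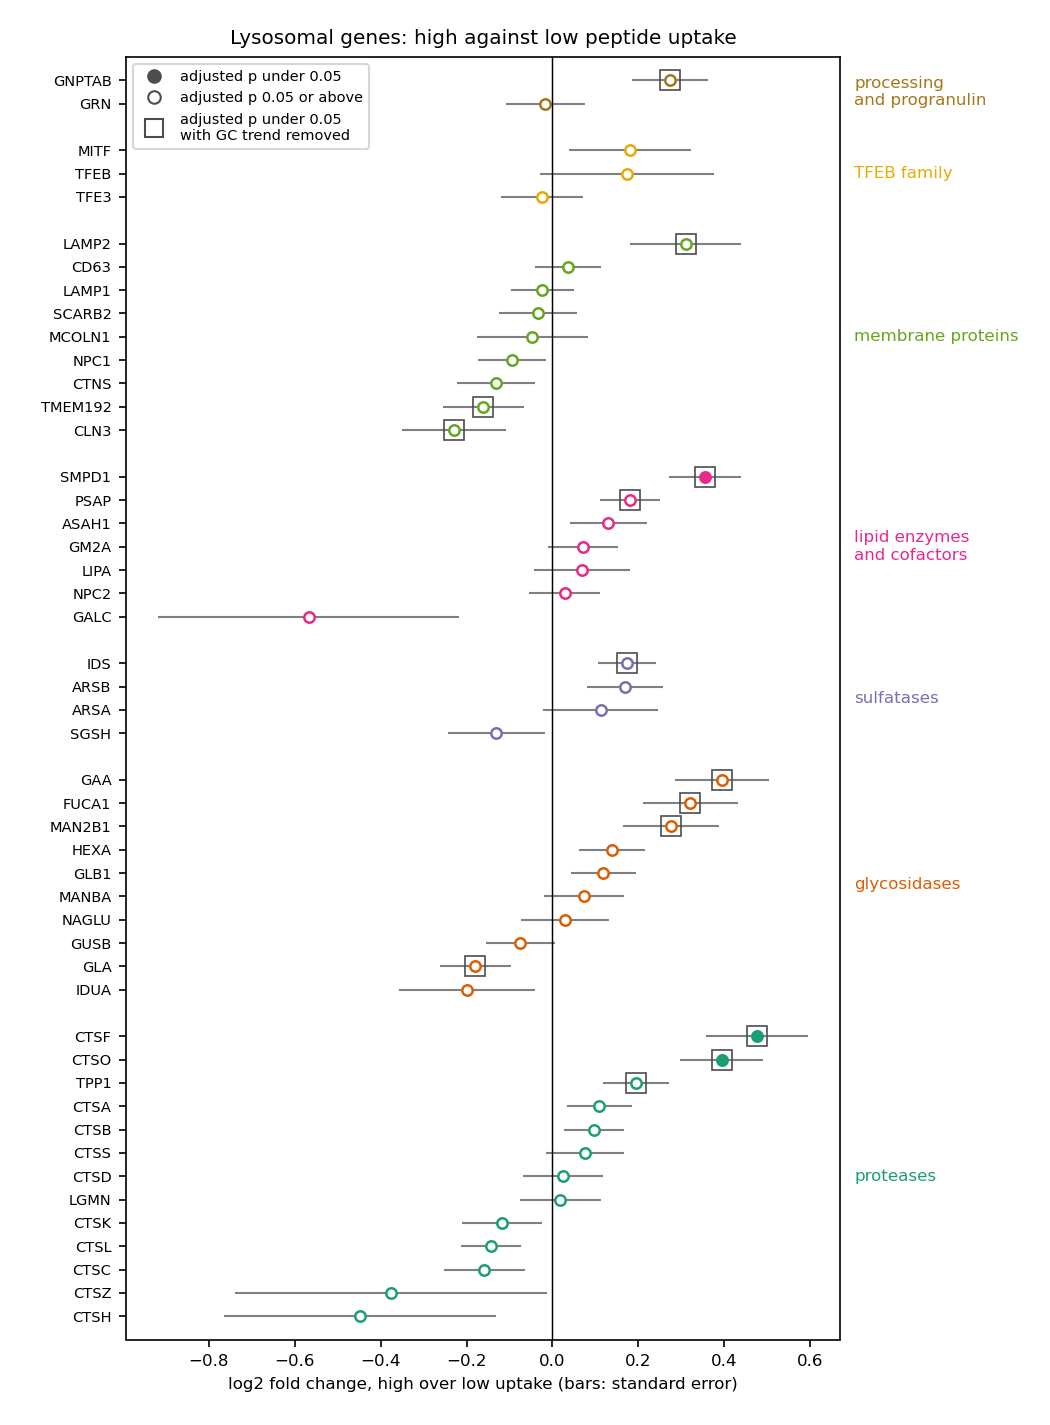
Log2 fold change of each of the 48 tested lysosomal genes, high over low uptake, by group. Points are edgeR estimates, bars 1 standard error, filled points are called and squares mark genes called once each library's trend with GC content was removed. The 3 filled points, SMPD1, CTSF and CTSO, lie between 0.36 and 0.48, and most soluble enzymes lie right of 0 while 7 of 9 membrane proteins lie left of it.

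The median log2 fold change over the 48 genes was 0.05, against -0.00 over all tested genes. A positive fold change was seen in 29 of 48 (60.4%), against 49.3% of all tested genes. Among the soluble enzymes and cofactors it was positive in 24 of 34 (70.6%), and among the membrane proteins in 2 of 9 (22.2%). These shares are descriptions, and the difference between the groups was not tested. The 3 high-uptake values all lay above the 3 low-uptake values in 14 of 48 genes and all lay below them in 4, where 13.0% and 11.4% of all tested genes did so.

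Promoter sequences are shown first for the called genes, because the TFEB family acts through the element CACGTG and these are the starts at which it would be sought. RefSeq (GRCh38.p14) gave promoters for 36 of the 49 genes, as 250 bases before each annotated start and 50 after it. CTSO was among the genes with no entry, as were CTSB, CTSK, CTSS, LGMN, HEXA, MANBA, NAGLU, SGSH, ARSA, ASAH1, PSAP and LAMP2. The 250 bases before the start of SMPD1 lie at chr11:6390224-6390473 on the plus strand and those of CTSF at chr11:66568607-66568856 on the minus strand. They are written 5′ to 3′ along the gene, with CACGTG in capitals.
SMPD1: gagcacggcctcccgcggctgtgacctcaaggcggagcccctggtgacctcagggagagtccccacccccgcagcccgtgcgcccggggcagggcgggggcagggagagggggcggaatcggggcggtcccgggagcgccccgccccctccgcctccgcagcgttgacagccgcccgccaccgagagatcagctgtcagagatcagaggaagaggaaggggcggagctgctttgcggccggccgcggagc
CTSF: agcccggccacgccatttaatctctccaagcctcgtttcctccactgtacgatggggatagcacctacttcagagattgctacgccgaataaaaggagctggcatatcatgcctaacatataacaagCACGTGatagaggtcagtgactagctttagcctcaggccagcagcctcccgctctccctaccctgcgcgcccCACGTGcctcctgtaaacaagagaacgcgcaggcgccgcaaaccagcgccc

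The letters CACGTG, which read the same on both strands, occurred 2 times before the CTSF start and 0 times in the SMPD1 window. They were found within the 300 bases of at least 1 annotated start in 10 of the 36 matched lysosomal genes (27.8%). By the same rule 2396 of 27305 genes of the table (8.77%) had them. Genes differ in their number of starts, and in ARSB and CD63 other starts lacked the letters. The longer palindrome TCACGTGA, which contains CACGTG, was found in 5 of 36 (13.9%), against 1.18% of all genes. Those 5 genes were CTSA, GAA, LAMP1, MCOLN1 and CLN3, and they are shown because they carry the element in its fuller form and differ in direction. Each is given as 24 bases on the gene's strand, with TCACGTGA in capitals. The positions are chr20:45891301-45891324 for CTSA, chr17:80101496-80101519 for GAA, chr13:113297202-113297225 for LAMP1, chr19:7522574-7522597 for MCOLN1 and chr16:28492061-28492084 for CLN3.
CTSA: gccggagtTCACGTGActcgtaca
GAA: aggccgcgTCACGTGAcccaccgc
LAMP1: ccgcgggaTCACGTGAcgcccggg
MCOLN1: agaggcggTCACGTGAggggctct
CLN3: gggtgctgTCACGTGAtccgacaa

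The genes with CACGTG did not move one way. Of the 9 tested genes that held it, 1 was called higher (CTSF) and their log2 fold changes ran from -0.23 in CLN3 to 0.48 in CTSF, with a median of 0.04. Of the 26 matched genes without it, 1 was called higher (SMPD1) and the median was -0.02. Over all tested genes 4.29% were called, and a tie between the element and the differences was not tested. The LAMP1 window held 6 copies, and LAMP1 had a log2 fold change of -0.02. A match of letters is a description and not a binding site.

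Among the proteases, CTSF and CTSO were called higher and the other 11 were not called. CTSF encodes cathepsin F, a cysteine protease of the papain family. It stood at 19.2, 19.2 and 16.8 CPM (counts scaled to library size by TMM) in high-uptake replicates 2, 3 and 4 and at 11.6, 13.2 and 14.96 CPM in low uptake. Every high-uptake library lay above every low-uptake library. The means were 18.4 ± 1.40 and 13.3 ± 1.67 CPM (SD, n = 3 each), a 1.39-fold difference or 0.48 in log2 units (SE 0.118, adjusted p = 0.0459).

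CTSO encodes cathepsin O, a further cysteine protease of this family. Its values were 20.2, 17.8 and 19.1 CPM in high uptake and 14.2, 14.8 and 14.7 CPM in low uptake. The low-uptake libraries lay close together and below each high-uptake library. The fold difference was 1.31, or 0.39 in log2 units (SE 0.0970, adjusted p = 0.0448). No other gene of the tables shares exons with CTSF, CTSO or SMPD1, and none has a transcript of 95% or more identity to theirs over at least 10% of its length.

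The abundant proteases showed smaller differences. CTSD, the major aspartic protease of the lysosome, had values of 1366, 1670 and 1420 CPM in high uptake and of 1317, 1553 and 1512 CPM in low uptake. The groups overlapped, and replicate 3 was the highest library in both. The log2 fold change was 0.02 (SE 0.0927, adjusted p = 0.931). CTSB and CTSL, the cysteine cathepsins of highest FPKM here, gave 0.10 (SE 0.0698, adjusted p = 0.508) and -0.14 (SE 0.0696, adjusted p = 0.310). In CTSB the high-uptake libraries all lay above the low-uptake libraries and in CTSL all lay below, so these 2 abundant cathepsins leaned opposite ways without passing the test.

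The rest of the proteases ranged from -0.45 in CTSH to 0.19 in TPP1, and none was called. TPP1, the tripeptidyl peptidase lost in a childhood ceroid lipofuscinosis, did not overlap between the groups (adjusted p = 0.206). CTSA, the protective protein that stabilises beta-galactosidase and sialidase, gave 0.11 and the asparagine-specific protease LGMN 0.02. CTSC, which activates serine proteases, gave -0.16 and the collagen-degrading CTSK -0.12. CTSS, known from antigen processing, gave 0.08. The aminopeptidase CTSH and the carboxypeptidase CTSZ were barely detected, at 9 to 27 and 4 to 16 counts per library, and their log2 fold changes of -0.45 and -0.38 had standard errors of 0.317 and 0.363. In 17.7% of its exonic bases CTSA overlaps NEURL2 on the opposite strand, a gene of at most 122 counts. It also shares 3.42% of them with PLTP on that strand, a gene of 4064 to 10774 counts, and whether the counting used strand is not given in the sources used here.

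**Figure D2:**
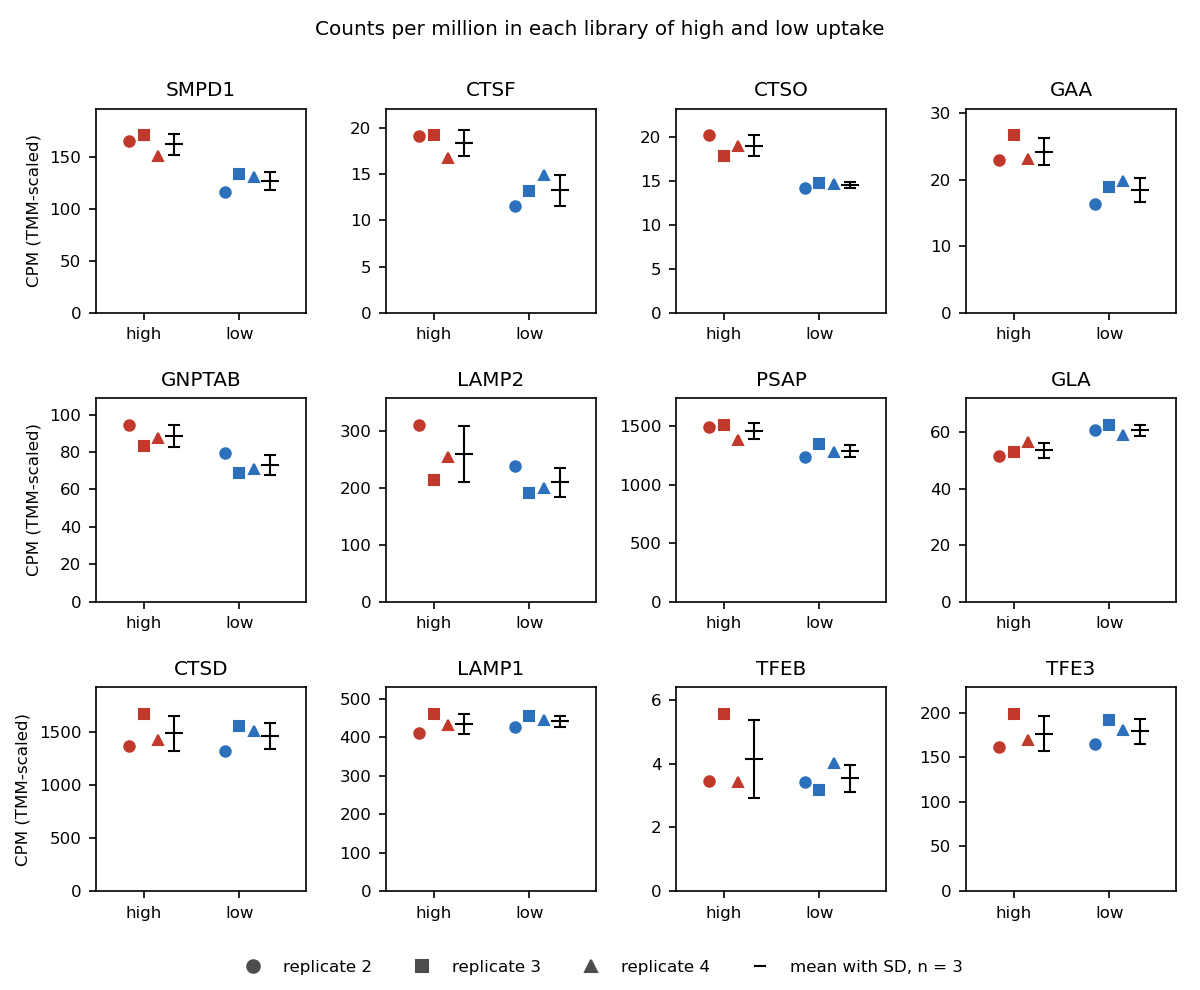
TMM-scaled CPM in each library for 12 lysosomal genes, with high uptake in red, low uptake in blue, a symbol for each replicate number, and the mean with its SD (n = 3). In SMPD1, CTSF, CTSO and GAA each red point lies above every blue point, while in CTSD, LAMP1, TFEB and TFE3 the groups overlap.

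Among the 10 tested glycosidases, 0 were called, and GAA came closest. GAA encodes the acid alpha-glucosidase that breaks down glycogen in the lysosome and is deficient in Pompe disease. Its values were 23.0, 26.6 and 23.0 CPM in high uptake and 16.4, 19.0 and 19.9 CPM in low uptake. The groups did not overlap, and the difference was 1.31-fold (log2 0.39, SE 0.109, adjusted p = 0.0686). DESeq2 called it, at an adjusted p of 0.0361.

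FUCA1, the alpha-fucosidase that trims fucose from glycoproteins, had values of 14.7, 13.7 and 12.9 CPM in high uptake and 10.1, 11.2 and 11.8 CPM in low uptake. All high-uptake libraries were above all low-uptake libraries, by 0.32 in log2 units (SE 0.110, adjusted p = 0.137). GLA, the alpha-galactosidase deficient in Fabry disease, leaned the other way. It stood at 51.4, 52.8 and 56.3 CPM in high uptake and at 60.6, 62.6 and 58.8 CPM in low uptake. Its groups did not overlap either (log2 -0.18, SE 0.0825, adjusted p = 0.274).

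The other glycosidases lay between -0.20 and 0.28. The lysosomal alpha-mannosidase MAN2B1 gave 0.28 (SE 0.111, adjusted p = 0.213), HEXA 0.14 and GLB1 0.12, and in each of these 3 the high-uptake libraries lay above the low-uptake libraries. HEXA and GLB1 act in the stepwise removal of sugars from gangliosides. The beta-mannosidase MANBA gave 0.07 and NAGLU, which acts on heparan sulfate, 0.03. GUSB, which removes glucuronic acid from glycosaminoglycans, gave -0.07. IDUA, which removes iduronic acid, gave -0.20 with a standard error of 0.158, and its low-uptake values spread from 12.3 to 20.4 CPM. IDUA shares 13.3% of its exonic bases with SLC26A1 on the opposite strand. Summed over the group, glycosidases stood at 498 to 525 CPM in high uptake and 450 to 497 CPM in low uptake.

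NEU1, the lysosomal sialidase, could not be described. It lies on chromosome 6, and of its 20 nearest neighbours in RefSeq order that the tables hold, 17 also had 0 counts in every library and 19 had at most 16. Its 0 is therefore given as listed and not as a level of expression.

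Of the sulfatases, 0 of 4 were called. IDS, the iduronate sulfatase deficient in Hunter syndrome, had the highest FPKM of them. It had values of 456, 433 and 461 CPM in high uptake and of 409, 394 and 394 CPM in low uptake. The groups did not overlap, and the log2 fold change was 0.17 (SE 0.0681, adjusted p = 0.202). ARSB, which removes sulfate from dermatan and chondroitin sulfate, stood at 46.6, 41.0 and 44.2 CPM in high uptake and at 37.4, 39.7 and 40.6 CPM in low uptake. Its lowest high-uptake library was just above its highest low-uptake library (log2 0.17, SE 0.0883, adjusted p = 0.348). ARSA, the sulfatase of sulfatide, gave 0.11 and SGSH, which acts on heparan sulfate, -0.13. The summed level of the 4 was 540 to 561 CPM in high uptake and 498 to 500 CPM in low uptake, and IDS makes up most of it.

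SMPD1 was the called gene among the lipid enzymes and cofactors, where 1 of 7 was called. Acid sphingomyelinase splits sphingomyelin into ceramide and phosphocholine, in the lysosome and, in its secreted form, at the outer cell surface, and it is deficient in Niemann-Pick disease types A and B. SMPD1 stood at 166, 171 and 151 CPM in high uptake and at 117, 134 and 131 CPM in low uptake. The lowest high-uptake library lay above the highest low-uptake library. The means were 163 ± 10.3 and 127 ± 8.95 CPM (SD, n = 3 each), a 1.28-fold difference or 0.36 in log2 units (SE 0.0848, adjusted p = 0.0399).

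PSAP, the precursor of the saposins that present sphingolipids to their hydrolases, had the highest FPKM of this group. Its values were 1490, 1514 and 1383 CPM in high uptake and 1241, 1347 and 1281 CPM in low uptake. The groups did not overlap, but the difference of 0.18 on the log2 scale was not called (SE 0.0704, adjusted p = 0.195). ASAH1, the acid ceramidase that acts after sphingomyelinase, gave 0.13 (adjusted p = 0.487) with overlapping groups. The ganglioside activator GM2A gave 0.07, the cholesteryl ester hydrolase LIPA 0.07 and the cholesterol carrier NPC2 0.03. GALC, which breaks down galactosylceramide, had 11 to 35 counts per library and gave -0.57 (SE 0.350, adjusted p = 0.429). Summed, this group stood at 1989 to 2136 CPM in high uptake and 1803 to 1889 CPM in low uptake.

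None of the 9 membrane protein genes was called, and their median log2 fold change was -0.05. LAMP2, a structural glycoprotein of the lysosomal membrane whose LAMP2A form takes part in chaperone-mediated autophagy, had the largest difference. It stood at 310, 214 and 253 CPM in high uptake and at 239, 190 and 199 CPM in low uptake. In both groups replicate 2 was highest and replicate 3 lowest, and the groups overlapped (log2 0.31, SE 0.129, adjusted p = 0.226). The transcript of LAMP2 has a GC content of 37.7%, and the count-weighted mean GC of the libraries was 49.4% and 49.3% in replicates 2 and 50.5% and 50.2% in replicates 3. With the trend of each library with GC removed, LAMP2 was called, at 0.30 (SE 0.0573, adjusted p = 0.00309). The value depended on single libraries: it was 0.42 and called without high-uptake replicate 3 (adjusted p = 0.0363), and 0.16 without high-uptake replicate 2 (adjusted p = 0.541). With the trend of each library with gene length removed it was 0.20 (adjusted p = 0.390). The tables do not separate its isoforms.

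CD63, the tetraspanin of late endosomes and exosomes, stood at 1185, 1034 and 1013 CPM in high uptake and at 1051, 1073 and 1029 CPM in low uptake. The high-uptake range enclosed the low-uptake range, and the groups differed by 0.04 in log2 units (SE 0.0769, adjusted p = 0.864). LAMP1, the other main membrane glycoprotein, gave -0.02 (SE 0.0731, adjusted p = 0.911). SCARB2, the receptor that carries beta-glucocerebrosidase to the lysosome, gave -0.03.

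CLN3, whose loss causes juvenile ceroid lipofuscinosis, had values of 35.3, 49.3 and 44.5 CPM in high uptake and of 45.5, 53.8 and 51.4 CPM in low uptake. Its low-uptake values were on the whole higher, with overlap (log2 -0.23, SE 0.122, adjusted p = 0.354). The difference was -0.10 without high-uptake replicate 2 and -0.34 without high-uptake replicate 3. In the 3 channels and carriers, the cholesterol exporter NPC1 gave -0.09, the calcium channel MCOLN1 -0.05 and the cystine carrier CTNS -0.13. TMEM192, a membrane protein used to tag lysosomes, gave -0.16 (adjusted p = 0.404), with every low-uptake library above every high-uptake library. The summed level of the 9 overlapped, at 2488 to 2668 CPM in high uptake and 2492 to 2570 CPM in low uptake.

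The TFEB family showed no called difference. TFEB was a low transcript, at 3.47, 5.57 and 3.42 CPM in high uptake and at 3.44, 3.18 and 4.01 CPM in low uptake. One library, high-uptake replicate 3, stood above the rest, and it was also the shallowest library (75 counts of TFEB). The log2 fold change was 0.17 (SE 0.202, adjusted p = 0.712), and -0.05 without that library.

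TFE3 had the highest FPKM of the family, with values of 161, 199 and 169 CPM in high uptake and of 164, 192 and 181 CPM in low uptake. The groups overlapped (log2 -0.02, SE 0.0956, adjusted p = 0.934). MITF stood at 12.1, 13.7 and 16.99 CPM in high uptake and at 11.2, 12.7 and 14.1 CPM in low uptake, again with overlap (log2 0.18, SE 0.142, adjusted p = 0.546). It was 0.03 without high-uptake replicate 4 and 0.30 without high-uptake replicate 2. These are transcript levels, and the activity of the family is set largely by where the proteins are in the cell, which was not measured.

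GNPTAB encodes the subunits of the phosphotransferase that begins the mannose 6-phosphate tag. Its values were 94.6, 83.0 and 87.3 CPM in high uptake and 79.3, 68.7 and 71.2 CPM in low uptake. The groups did not overlap, and the log2 fold change of 0.27 was not called (SE 0.0887, adjusted p = 0.116). GRN, which encodes progranulin, a secreted protein that is also processed in the lysosome, stood at 300.2, 358 and 310 CPM in high uptake and at 293, 345 and 341 CPM in low uptake. Those values overlapped (log2 -0.02, SE 0.0927, adjusted p = 0.956).

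Levels between genes were compared per length, in the FPKM that the authors deposited. CTSD was the highest of the 49, with a mean of 693 FPKM over the 6 libraries, followed by CD63 at 516 and PSAP at 485 FPKM. CD63 and PSAP overlapped in range over the libraries, and CTSD lay above both in every library. CTSA (274), CTSB (252), CTSL (225), LAMP1 (172), GRN (141) and NPC2 (135 FPKM) came next. The called genes were of middling to low level, SMPD1 at 58.5, CTSF at 7.84 and CTSO at 5.71 FPKM. TFE3 stood at 51.5 FPKM, far above MITF (2.21) and TFEB (1.40 FPKM). CTSH, CTSZ and GALC were the lowest of the detected genes, with means of 0.494, 0.264 and 0.236 FPKM.

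**Figure D3:**
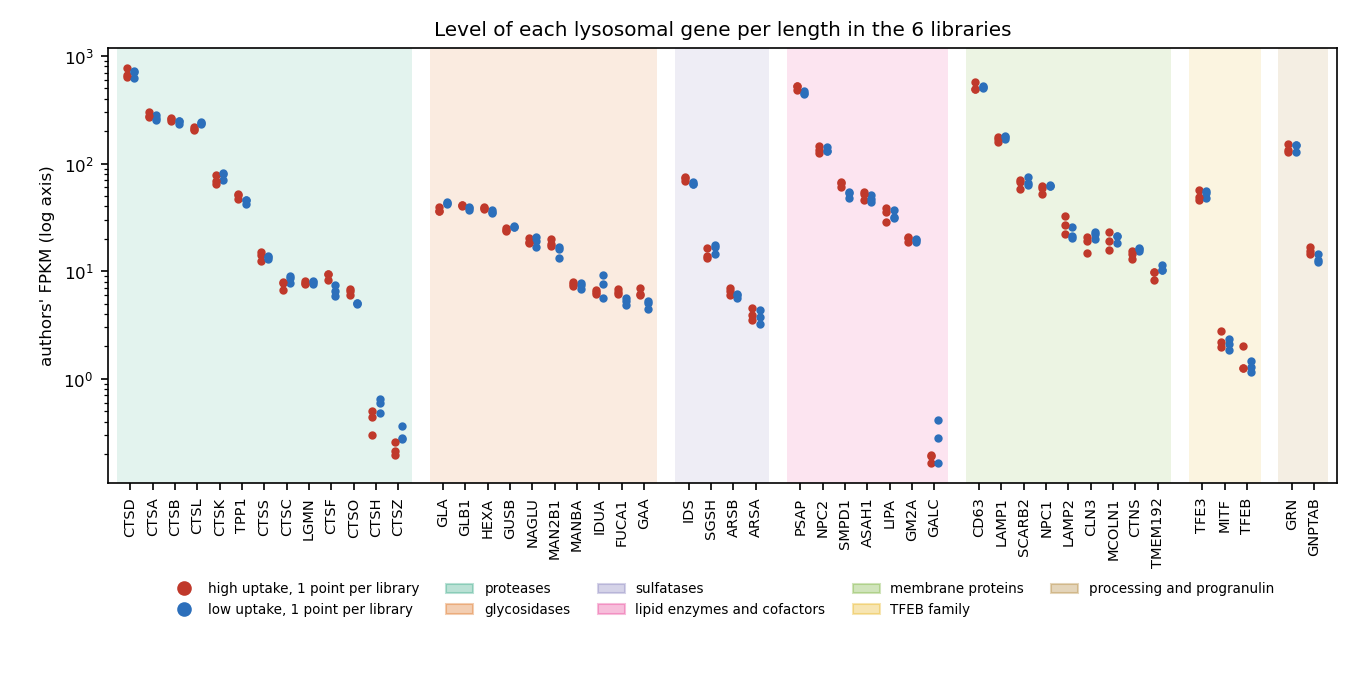
Authors' FPKM on a log axis for the 48 lysosomal genes with counts, by group, with 1 point per library (red high uptake, blue low uptake). Levels within the groups span from 693 FPKM in CTSD to 0.236 FPKM in GALC (means of 6 libraries), and the distance between red and blue points is small beside that span.

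The authors also deposited a list of 2305 gene symbols without values, whose name gives a differential expression test with a minimum count of 10 and a p of 0.05, but neither the tool nor whether p was adjusted. In the authors' deposited list, 11 of the 49 lysosomal genes appear, which is 22.4% of the genes and 0.477% of the list, where 15.8% of all tested genes are in it. They are CTSF, CTSO, TPP1, GAA, MAN2B1, FUCA1, IDS, SMPD1, PSAP, LAMP2 and GNPTAB. All 11 had a positive log2 fold change here. Such a list rests on the same series and is not independent of these values.

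The calls depended on how the libraries were compared. SMPD1 and CTSF lost their call when any 1 of the 6 libraries was left out, at adjusted p between 0.0620 and 0.127 for SMPD1 and between 0.0632 and 0.131 for CTSF. CTSO lost it without any library except high-uptake replicate 3 (0.0322 without it, otherwise 0.0804 to 0.162). The log2 fold change in these fits ran from 0.30 to 0.41 for SMPD1, 0.38 to 0.57 for CTSF and 0.35 to 0.42 for CTSO. It stayed positive in all 3, but their groups did not overlap, so leaving out 1 library could hardly change the sign. With upper quartile scaling, or with total counts in place of TMM, 0 lysosomal genes were called, where 3.85% and 3.69% of all genes were. The differences were then nearly as large, at 0.34 and 0.33 for SMPD1, 0.46 and 0.45 for CTSF and 0.38 and 0.37 for CTSO in log2 units, with adjusted p from 0.0505 to 0.0620.

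With the trend of each library with GC content removed, 11 lysosomal genes were called higher and 3 lower of 48 (29.2%), where 10.6% of all genes were called higher and 8.45% lower. The calls over all genes were then 55.6% higher, against 70.6% as first tested. The 11 were CTSF, CTSO, TPP1, GAA, MAN2B1, FUCA1, IDS, SMPD1, PSAP, LAMP2 and GNPTAB, and the 3 lower genes were GLA, CLN3 and TMEM192. Their estimates hardly moved: GAA went from 0.39 to 0.40 and its standard error from 0.109 to 0.0655, and CLN3 stayed at -0.23 while its standard error went from 0.122 to 0.0738. In this fit the soluble enzymes and cofactors had 9 higher and 1 lower of 34, and the membrane proteins 1 higher and 2 lower of 9.

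**Figure D4:**
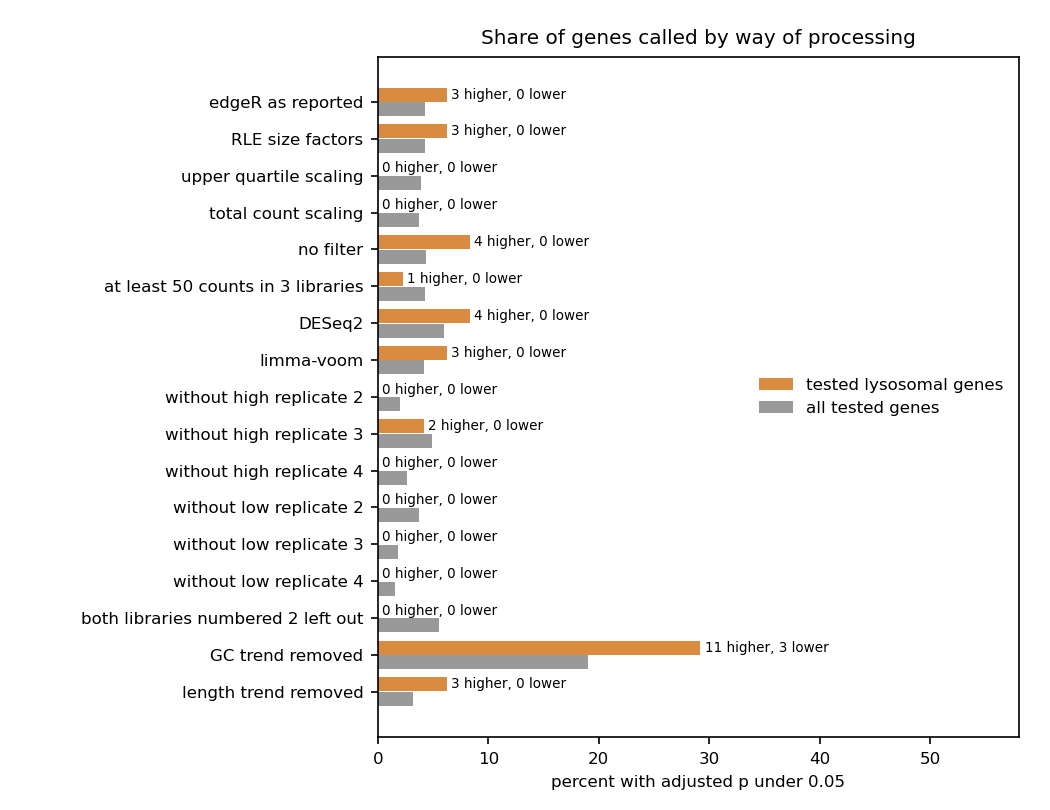
Percentage of the tested lysosomal genes (orange) and of all tested genes (grey) called under the ways of processing shown, with the number of lysosomal genes higher and lower beside each bar. Most settings shown call 0 to 4 lysosomal genes, and removing the GC trend calls 11 higher and 3 lower while also raising the grey bar to 19.0%. Fits with the replicate number as a block are left out of the figure and given in the text.

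Further genes tied to the lysosome were counted, not all of which encode lysosomal proteins. The lists were other hydrolases and related enzymes, other membrane proteins, mannose 6-phosphate sorting, cystatins and the mTORC1 control of TFEB. Of 88 tested among 99, 1 was called higher and 2 lower, where 3.03% and 1.26% of all tested genes were. The median log2 fold change of the 88 was 0.02. HGSNAT, which acetylates heparan sulfate so that it can be degraded, was the higher one, at 64.7, 69.5 and 68.6 CPM in high uptake and 52.0, 51.2 and 56.7 CPM in low uptake (log2 0.34, SE 0.0837, adjusted p = 0.0435). CTSV, a cathepsin close to cathepsin L, was lower, at 2.40, 3.19 and 2.52 CPM against 4.97, 4.54 and 3.67 CPM (log2 -0.75, SE 0.177, adjusted p = 0.0378). GGA2, an adaptor that sorts mannose 6-phosphate receptors out of the Golgi, was also lower, at 41.0, 42.9 and 42.5 CPM against 53.9, 52.6 and 57.7 CPM (log2 -0.38, SE 0.0832, adjusted p = 0.0277). In all 3 genes the groups did not overlap. With the GC trend removed, 10 of the 88 genes were called higher and 4 lower, where 10.6% and 8.45% of all genes were.

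In the lists without a call, the gene of smallest p was RRAGA, a Rag GTPase that recruits mTORC1 (0.28, adjusted p = 0.0932), SIDT2, a lysosomal membrane protein (0.30, adjusted p = 0.142), and CSTB, an inhibitor of cysteine cathepsins (-0.11, adjusted p = 0.467). HGSNAT lost its call whichever library was left out, at adjusted p between 0.0664 and 0.179. CTSV kept its call only without high-uptake replicate 3 (0.0184, otherwise 0.0532 to 0.131). GGA2 kept it only without high-uptake replicate 3 or low-uptake replicate 2 (0.0219 and 0.0316, otherwise 0.0781 to 0.162).

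The libraries held 13712263 to 40742857 counts, with high-uptake replicate 3 the shallowest, and the lysosomal genes took 0.971% to 1.04% of them. Vimentin (VIM, 9886 to 11130 CPM) and CD44 were high and NES stood at 18.7 to 25.4 CPM. Other markers of glial and neural stem cells were near 0 in this line: GFAP reached 0.955 CPM, OLIG2 1.47 CPM, FABP7 6 counts, S100B 2 counts and SOX2 1 count. Of the macrophage markers CSF1R alone was tested, at 15.6 to 20.9 CPM, and AIF1 was at 0. CSF1R gave -0.23 in log2 units (adjusted p = 0.268) and was called lower with the GC trend removed (adjusted p = 0.0437). Fibroblast or endothelial markers summed to 64.1 to 73.6 CPM in high uptake and 35.4 to 47.6 CPM in low uptake, with 2 of 5 called higher (PDGFRB and LUM). The endothelial marker KDR went the other way without overlap (log2 -0.49, adjusted p = 0.0820) and was called lower with the GC trend removed (adjusted p = 0.0202), and VWF gave -0.41 (adjusted p = 0.615). The part of these differences in the lysosomal values was not tested. Neuronal markers summed to 312 to 351 against 261 to 313 CPM, with SNAP25 higher and MAP2 lower, and epithelial markers to 2.06 to 3.04 against 2.10 to 2.68 CPM.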

How the data were processed

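Total RNA was made into directional libraries, per the labels' protocols. Tools named in the submitters' processing notes are fastp, STAR and featureCounts, with build hg19. The annotation, the strand setting and how multi-mapping reads were counted are not given there. Read counts, FPKM and TPM per gene symbol were deposited by the authors, per the file headers, and TPM was not used. The counts were tested with edgeR 4.0.16 (R 4.3.3; filterByExpr with minimum count 10 and minimum total 15, TMM, robust quasi-likelihood F-test, two-sided, Benjamini-Hochberg over all 14598 kept genes, threshold 0.05). SE is the log2 fold change divided by the square root of F. GC content came from the longest GENCODE transcript (GRCh38) for 14103 tested genes (96.6%) and all 49 lysosomal genes. The median log2 fold change of all genes moved by at most 0.0253 under other scalings. Alternatives used DESeq2 1.42.0, limma 3.58.1, other scalings and filters, left-out libraries, and GC or length trends removed by loess. The script was tested on simulated data. Values per library are given for called genes, the 2 of smallest p and the highest FPKM in each group, and the TFEB family. The genes and lists were chosen with earlier results of these data known.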

Additional observations from a re-analysis of the deposited data

How the results depend on the processing

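All 3 called genes kept a positive difference under every setting run. Their groups did not overlap, so a change of sign was hardly possible. The count of lysosomal genes called higher was 3 as tested, 0 with upper quartile scaling, 0 with total counts, 1 when genes needed 50 counts in 3 libraries and 0 with both libraries numbered 2 left out. Over all genes, 4.29%, 3.85%, 3.69%, 4.25% and 5.51% were called in these fits. The count of lysosomal genes called higher ran from 0 to 2 over the fits without 1 library. There 232 to 738 genes of the whole table (1.55% to 4.92%) were called, against 626 with all 6. With the GC trend removed, 11 lysosomal genes were higher and 3 lower (29.2%), and 2685 genes were called in all (19.0%). With the replicate number as a block, 11 were higher and 3 lower (29.2%), where 3176 of all genes (21.8%) were called. With the block and the GC trend removed together, 14 were higher and 7 lower (43.8%), where 4065 of all genes (28.8%) were called. The labels do not say whether the same numbers mark pairs. Deviations of same-numbered libraries correlated at 0.45 for number 2, 0.30 for number 3 and 0.0873 for number 4. Between different numbers the correlations ran from -0.40 to 0.22, and 5 of 6 libraries correlated best with their own number. The cause of these moves was not tested.

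Genes near 0 changed sign. With total counts, CTSD was at -0.002 and LGMN at -0.007 (log2). Without both libraries numbered 2, LGMN was at -0.034, NAGLU at -0.047, CD63 at -0.035 and MCOLN1 at 0.011, and with the length trend removed GRN was at 0.004. Over the fits without 1 library, the log2 fold change ran from -0.080 to 0.083 in CTSD, -0.018 to 0.040 in LGMN, -0.065 to 0.106 in NAGLU, -0.002 to 0.225 in ARSA, -0.023 to 0.162 in LIPA, -0.030 to 0.066 in NPC2, -0.080 to 0.018 in LAMP1, -0.038 to 0.084 in CD63, -0.089 to 0.038 in SCARB2, -0.199 to 0.085 in MCOLN1, -0.048 to 0.296 in TFEB, -0.128 to 0.038 in TFE3 and -0.109 to 0.035 in GRN. Depth limits CTSH, CTSZ and GALC, at 4 to 35 counts per library.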

Other observations

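Several of the enzymes that degrade heparan sulfate in the lysosome were measured, and their genes did not lean one way. This set was put together after its values were seen, and it does not hold every enzyme of the series. HGSNAT gave a log2 fold change of 0.34 (edgeR adjusted p = 0.0435), a call lost when any 1 library was left out (adjusted p between 0.0664 and 0.179). IDS gave 0.17 (adjusted p = 0.202), NAGLU 0.03 (adjusted p = 0.926), GUSB -0.07 (adjusted p = 0.685), SGSH -0.13 (adjusted p = 0.5996) and IDUA -0.20 (adjusted p = 0.556). With the GC trend of each library removed, HGSNAT was called at 0.33 (adjusted p = 0.00213).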
